A study of Mus musculus with 17 samples.

Results

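The genes described here encode the nuclear subunits of respiratory complex I. They were taken as the rows of the 3 deposited count tables whose NCBI gene number carries 1 of 36 complex I symbols (the Ndufa, Ndufb, Ndufc, Ndufs and Ndufv families and Ndufab1), 36 of 27179 genes in all. All 36 were found, and each had between 507 and 14596 counts in every library, so all 36 were tested in each comparison.

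Complex I takes electrons from NADH, passes them to ubiquinone and pumps protons across the inner mitochondrial membrane. Its peripheral arm holds the NADH site and the chain of iron-sulfur clusters, while its membrane arm carries the proton pumps, whose central subunits are encoded by mitochondrial DNA and surrounded by nuclear-encoded supernumerary subunits. MCJ, the product of Dnajc15, is a protein of the inner mitochondrial membrane known as a brake on complex I. Absorptive colonocytes rely strongly on mitochondrial respiration, and activated macrophages can shift towards glycolysis.

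RNA was measured in 17 libraries of colon macrophage preparations from C57BL/6(h-2b) mice of 8 weeks, wild type (WT) or deficient in MCJ (KO). The titles name no treatment for NN (3 wild-type and 2 MCJ-deficient libraries); mice of NP received DSS, which injures the colon epithelium, for 6 days (3 and 3), and mice of PP had 7 days of a broad-spectrum antibiotic before the same DSS course (3 and 3). According to the labels, macrophages were obtained from colon tissue by washing and digestion with collagenase type IV, with no sort named, and the labels do not say whether MCJ is lacking in all cells. Each title gives a mouse number, taken here as 1 mouse per library, and p-values measure the spread between these samples. No group of antibiotic without DSS was analysed here, so the antibiotic was compared only in mice that also received DSS.

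The libraries held 29194744 to 37083344 counts, of which 23.1 to 50.4% came from mitochondrially encoded genes. Levels are therefore given as CPM, counts scaled to the same nuclear-encoded total in every library. Dnajc15 checked the genotype labels. Among wild-type libraries it stood at 72.0, 21.1 and 61.0 CPM in NN, at 62.4, 68.6 and 64.2 for NP and at 44.0, 44.6 and 49.9 for PP. Without MCJ it stood at 4.52 and 4.62 CPM in NN, then 4.95, 3.06 and 3.44 with DSS and 0.831, 0.811 and 4.45 after both agents. Every MCJ-deficient library was below every wild-type library.

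The libraries also differed in their mix of cells. The summed CPM of 14 macrophage markers ran from 43.2 to 107 in the 5 NN libraries, 303 to 482 in wild-type NP, 1109 to 2967 in MCJ-deficient NP, 1329 to 8925 in wild-type PP and 4179 to 8158 in MCJ-deficient PP. In wild-type NN, Aif1 had 0 counts in every library and 6 of the 14 markers stayed under 10 counts, Adgre1 (the F4/80 antigen) at 1, 2 and 0 counts. The labelled cell type was therefore barely visible in NN. The summed CPM of 18 colonocyte markers ran the other way, from 43435 to 55346 in NN down to 18314 to 39074 in PP. Neutrophil markers were higher in the same libraries, from at most 83.0 CPM in NN to 1588 to 6913 in MCJ-deficient PP. Library 11 of wild-type PP stood apart from the other 2 of its group, with the fewest macrophage and the most colonocyte transcripts. In such bulk samples fewer cells of a type and less RNA per cell cannot be told apart, and the part of the cell mix in the results below was not tested.

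Promoter sequences of 33 of the 36 genes were found in a RefSeq table (GRCm38.p6, 250 bases before to 50 after the start used there). That start is not always the outer end of the gene. Their median GC content was 59.0%, against 52.8% over the 27025 genes of the table. The motif seen most often relative to all promoters was the YY1 motif AAGATGGC, searched on both strands, which occurred in 7 of 33 promoters (21.2%) against 3.19% of all. The 7 sites are printed because they lie in 1 strand and 1 stretch, with the first base of the motif at base 23 to base 39 after the start. Each is given 5′ to 3′ on the strand of its gene, with the motif in capitals.
Ndufa3, chr7:3617384-3617413: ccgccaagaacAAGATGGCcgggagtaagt
Ndufa9, chr6:126849097-126849126: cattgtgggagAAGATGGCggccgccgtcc
Ndufb8, chr19:44555393-44555415: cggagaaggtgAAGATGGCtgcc
Ndufc1, chr3:51408915-51408944: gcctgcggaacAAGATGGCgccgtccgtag
Ndufs4, chr13:114388045-114388070: ttgcctacaggAAGATGGCggcggtc
Ndufs6, chr13:73328433-73328460: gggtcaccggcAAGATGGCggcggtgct
Ndufs7, chr10:80249462-80249491: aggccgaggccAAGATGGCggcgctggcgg
Ndufa3 and Ndufs7 lie on the plus strand and the other 5 on the minus strand. For Ndufa3 and Ndufs7 the start used lies inside the gene, with outer ends at chr7:3617347 and chr10:80249105. The shared stretch thus depends on the start taken. All 7 genes were among those that fell in wild-type PP mice, described below, as were all but 1 of the other 26 genes with a promoter in the table.

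The core of NRF1, a factor known to act on genes of the respiratory chain, was searched as GCATGCGC and found in 3 of 33 promoters (9.09%) against 3.05% of all. These sites are shown for their varied place relative to the start.
Ndufa6, first base 83 before the start, minus strand, chr15:82354356-82354385: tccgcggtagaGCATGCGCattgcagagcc
Ndufa8, 8 before the start, minus strand, chr2:36049328-36049357: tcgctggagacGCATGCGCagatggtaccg
Ndufa11, 58 before the start, plus strand, chr17:56717693-56717722: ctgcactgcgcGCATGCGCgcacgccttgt
In Ndufa11 a match on the other strand overlaps the one shown. The ETS core CCGGAAG occurred in 4 of 33 (12.1%) against 9.93% of all, the Sp1 motif GGGCGG in 15 of 33 (45.5%) against 38.2%, and the ERR motif TCAAGGTCA in 0 of 33 against 0.466%. These matches describe letters, not binding.

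Complex I transcripts were lowest in PP. Their summed level was 9112, 10947 and 9035 CPM in wild-type NN, 8069, 7696 and 9182 in wild-type NP, and 4091, 6566 and 4859 in wild-type PP. MCJ-deficient libraries summed to 8513 and 7198 CPM (NN), 6978, 7017 and 6433 (NP), and 2887, 3127 and 4272 (PP). The PP libraries of either genotype lay below all NN libraries, and wild-type PP library 11 overlapped MCJ-deficient NP. The MCJ-deficient libraries lay below the wild-type libraries of the same condition in NN and NP, and overlapped them in PP.

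**Figure D1:**
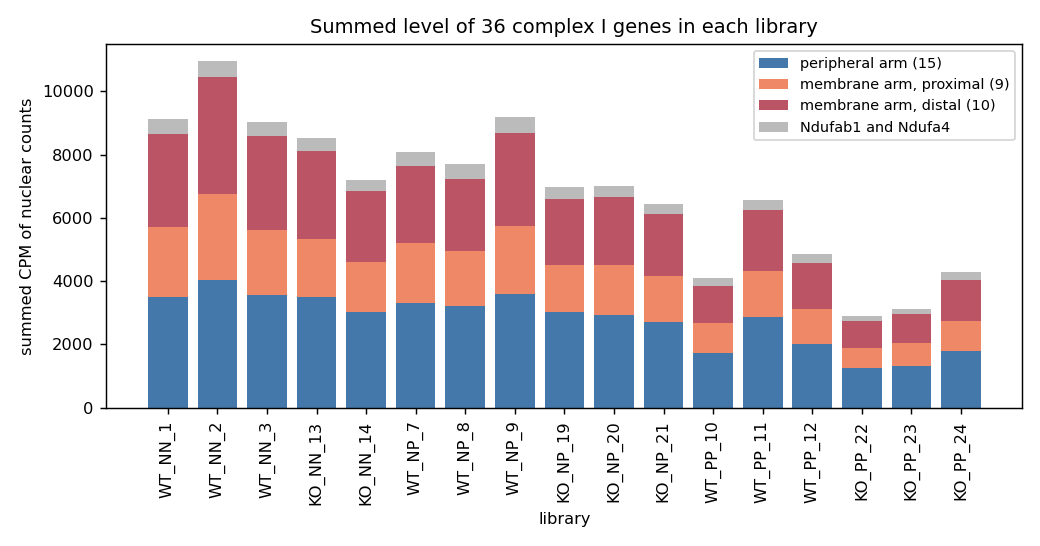
Bars show, for each of the 17 libraries, the summed CPM of nuclear counts of the 36 complex I genes, stacked by arm. The 6 PP libraries hold 2887 to 6566 CPM and the 5 NN libraries 7198 to 10947.

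The colonocyte marker sum was lower in PP as well. The summed complex I level was 0.12 to 0.256 of the colonocyte marker sum over the 17 libraries, 0.163 to 0.247 in wild-type NN and 0.168 to 0.202 in wild-type PP, which overlap. In MCJ-deficient mice the ratio was 0.130 and 0.196 in NN and 0.12 to 0.171 in PP, also overlapping. The summed complex I level was thus lower in PP than in NN by about as much as the colonocyte marker sum. Between the genotypes the colonocyte sum did not follow complex I in NN and NP. It averaged 49298 CPM with and 49309 without MCJ in NN, and 41353 and 45536 in NP. Summed complex I averaged 9698 and 7855, then 8316 and 6809. In PP both averages were lower without MCJ, at 28426 and 22761 CPM for the colonocyte sum and 5172 and 3429 for complex I. The PP genotypes also differed in red blood cell markers, which summed to 451 to 596 CPM with and 1004 to 16016 without MCJ. The part of these transcripts in the genotype difference was not tested. Wild-type PP library 11, with the most colonocyte transcripts of its condition, also had the most complex I. Complex I was 0.284 to 0.339 of the summed level of 36 nuclear subunits of complexes II to V over the 17 libraries. In PP this ratio was 0.308 to 0.339 in wild type and 0.284 to 0.302 without MCJ, with no overlap. In NN and in NP the genotypes overlapped.

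**Figure D2:**
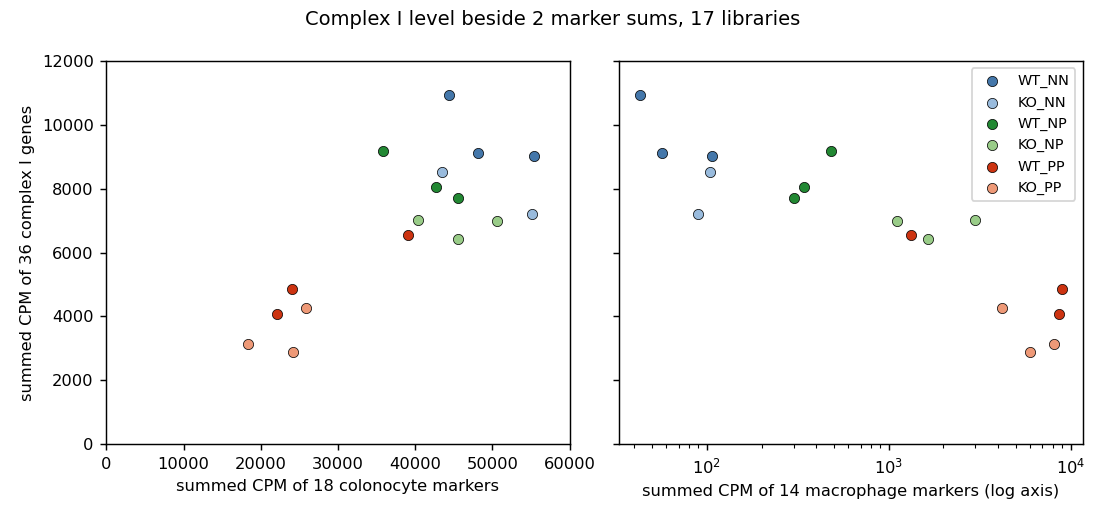
Each point is a library; the y axis is the summed CPM of the 36 complex I genes and the x axis the summed CPM of 18 colonocyte markers (left) or 14 macrophage markers (right, log axis). The PP libraries other than wild-type library 11 sit apart from the rest at 2887 to 4859 CPM of complex I, with few colonocyte and many macrophage transcripts.

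PP against NN, antibiotic then DSS against mice with no treatment named, was the comparison with the most calls. In wild-type mice 34 of 36 genes fell at an adjusted p under 0.05 (edgeR quasi-likelihood test, Benjamini-Hochberg adjustment), where 7.31% of the 16958 genes tested were called lower. The median log2 fold change of the 36 genes was -1.32, against 0.27 over all genes tested. In MCJ-deficient mice 19 of 36 fell, where 3.77% of all genes were called lower, and the median was -1.04 against 0.06. These 19 were all among the 34 of wild type. Leaving out 1 library gave 27 to 33 calls in wild type but 2 without KO NN library 13, 8 without KO NN library 14, 10 without KO PP library 22, 11 without KO PP library 23 and 28 without KO PP library 24. All PP libraries lay below all NN libraries for 31 of 36 genes in wild type, where 6.92% of all genes did so, and for 35 of 36 in MCJ-deficient mice, where 26.8% did. The exceptions were Ndufa10 in both genotypes and Ndufa9, Ndufa12, Ndufs1 and Ndufv1 in wild type. Whether the 2 genotypes differed in this fall was tested gene by gene as a difference of fold changes, a test added after the first results were seen, and 0 of 36 were called (1 at an unadjusted p under 0.05 by edgeR, 2 by DESeq2, of which 0 were called), where 0.0531% of all genes were.

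The fall reached every arm. In wild type it was called for 14 of 15 genes of the peripheral arm (median log2 fold change -1.16), 8 of 9 of the membrane arm near the peripheral arm (-1.50) and 10 of 10 of its distal end (-1.41). In MCJ-deficient mice the counts were 8 of 15 (-0.95), 4 of 9 (-1.03) and 6 of 10 (-1.18). Both remaining genes fell in wild type: Ndufab1, the mitochondrial acyl carrier protein, and Ndufa4, now known as a partner of cytochrome c oxidase.

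**Figure D3:**
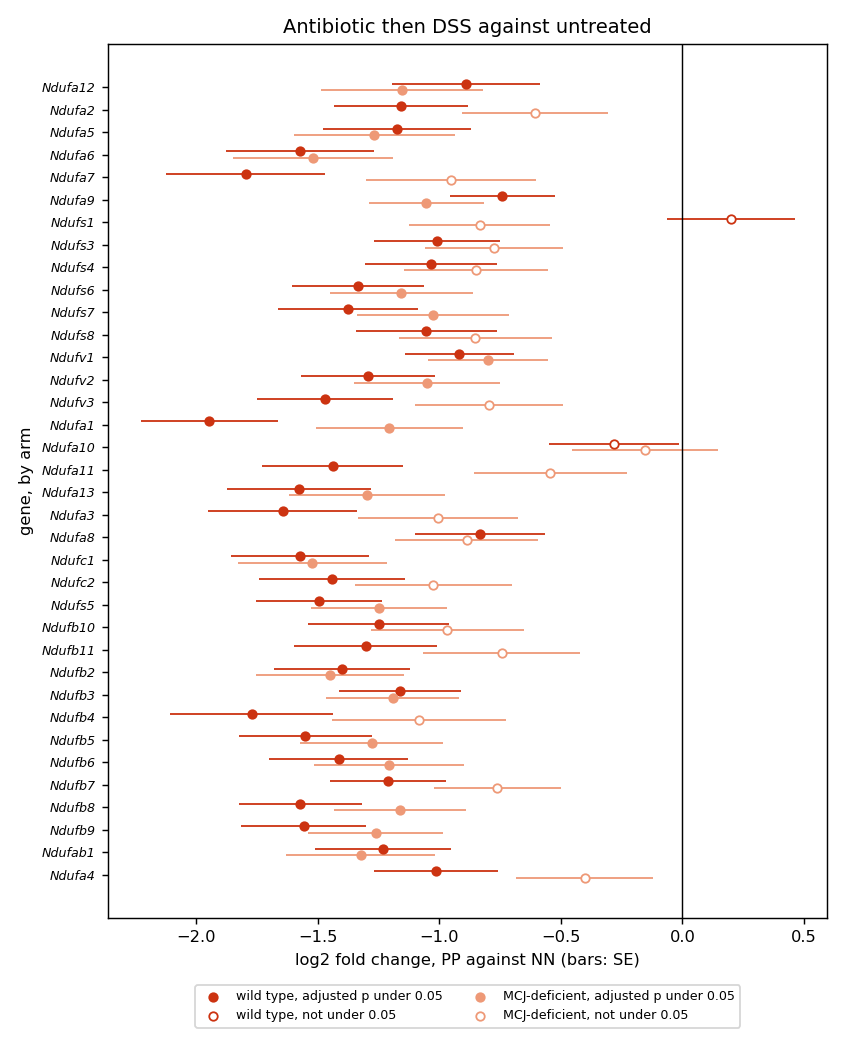
Points give the log2 fold change of PP against NN for each complex I gene in wild-type (dark) and MCJ-deficient mice (light), with bars of 1 standard error and filled points at an adjusted p under 0.05. All values but that of Ndufs1 in wild type lie below 0, and Ndufa10 lies closest to 0 among the rest.

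Of the 6 core subunits of the peripheral arm, 5 fell in wild type. Ndufv1, which carries the flavin that accepts electrons from NADH, stood in wild type at 224, 300.3 and 269 CPM in NN, 223, 258 and 257 in NP and, in PP, 148, 240.2 and 159. Without MCJ the same gene had 274 and 267, then 263, 253 and 256, then 132, 125 and 152. Wild-type PP library 11 reached into the NN range and the MCJ-deficient PP libraries did not. The log2 fold change of PP against NN was -0.92 ± 0.23 (SE; adjusted p = 0.0079, edgeR) in wild type and -0.80 ± 0.25 (adjusted p = 0.047) without MCJ.

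Ndufv2, its iron-sulfur partner, had in wild type 518, 584 and 513 CPM in NN, 512, 464 and 555 in NP and, in PP, 235, 388 and 236. Mice without MCJ had 499 and 450.0, then 394, 392 and 375, then 157, 159.8 and 278. No PP library reached the NN range of its genotype. Ndufs7, which holds the last iron-sulfur cluster before ubiquinone, stood at 181, 245 and 194 CPM in wild-type NN, 130.1, 151 and 199.7 in NP and, in PP, 74.5, 133 and 106. MCJ-deficient mice had 176 and 133, then 153, 134 and 122, then 49.5, 61.5 and 86.0, again with no overlap of PP and NN. Ndufv2 fell by 1.29 on the log2 scale in wild type and by 1.05 without MCJ, Ndufs7 by 1.38 and 1.03.

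Ndufs3, a scaffold subunit early in assembly, had 238, 280.4 and 228 CPM in wild-type NN, 243, 221 and 182 in NP and, in PP, 122, 217 and 146. Its MCJ-deficient values were 248 and 191, then 223, 205 and 191, then 94.8, 121 and 119. Ndufs8, which carries iron-sulfur clusters, had 217, 222 and 195 in wild-type NN, 201, 192 and 159 in NP and, in PP, 96.1, 175 and 127. In MCJ-deficient mice Ndufs8 had 201 and 169, then 184, 172 and 172, then 63.2, 76.9 and 125. Both fell in wild type (-1.01 and -1.05), and in MCJ-deficient mice their values of -0.78 and -0.85 did not pass (adjusted p = 0.095 and 0.10, edgeR), although no PP library overlapped NN.

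Ndufs1, the largest core subunit, was the exception. It stood at 149, 103 and 94.8 CPM in wild-type NN, 156, 185 and 96.6 in NP and, in PP, 146, 204 and 165. The MCJ-deficient libraries had 215 and 173, then 189, 188 and 219, then 107, 90.8 and 91.7. It was thus high in wild-type PP and low in MCJ-deficient PP, with no overlap between these, while in NN the MCJ-deficient libraries were the higher. The log2 fold change of PP against NN was 0.20 ± 0.26 in wild type (adjusted p = 0.64, edgeR) and -0.83 ± 0.29 without MCJ (adjusted p = 0.079). The difference between genotypes, -1.03 ± 0.39, had an unadjusted p = 0.017 and an adjusted p = 0.51 in edgeR. Ndufs1 has the longest transcript of the 36, 2590 bases, and its exons overlap 248 bases of an antisense transcript. The strand setting of the counts is not given in the sources used here, and 12 of the 36 genes share exonic bases with a gene on the opposite strand, so part of their counts may belong to that gene. Ndufb2, Ndufb8 and Ndufb9 share 145, 134 and 201 exonic bases with a gene on the same strand, and the same limit holds for their counts.

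Accessory subunits of the peripheral arm fell with the core. Ndufa6, an LYR-motif protein that binds the acyl carrier protein, had 253, 237 and 222 CPM in wild-type NN and 67.9, 153 and 92.2 in PP, and 204 and 225 then 79.6, 45.0 and 74.6 in MCJ-deficient mice. It was 1 of the 3 genes with the smallest p of the MCJ-deficient comparison, -1.52 ± 0.33 (adjusted p = 0.0059, edgeR). Ndufa12 had 100.2, 111 and 108 CPM in wild-type NN but 45.5, 114 and 66.5 in PP, so that library 11 lay above the whole NN group. Ndufa9, near the ubiquinone site, had 341, 267 and 327 in wild-type NN and 191, 323 and 206 in PP, and 340.4 and 290.2 then 129, 126 and 145 in MCJ-deficient mice.

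The membrane arm near the peripheral arm held both the gene that fell furthest in wild type and an accessory gene that was not called. Ndufa1, a small membrane subunit encoded on the X chromosome and needed for assembly, stood at 379.9, 435 and 395 CPM in wild-type NN, 270.3, 185 and 280.4 in NP and, in PP, 109, 159.8 and 139. MCJ-deficient mice had 285 and 259, then 179.6, 208 and 229, then 77.4, 94.0 and 134. The groups separated in order NN, NP and PP in both genotypes. Its log2 fold change of PP against NN was -1.95 ± 0.28 in wild type (adjusted p = 1.5e-04, edgeR) and -1.21 ± 0.30 without MCJ (adjusted p = 0.015).

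Ndufc1, the gene with the shortest transcript (315 bases), stood at 179, 242 and 153 CPM in wild-type NN, 136, 139 and 189 in NP and, in PP, 71.8, 104 and 78.6. The MCJ-deficient values were 139 and 124, then 107, 101 and 81.2, then 31.3, 40.0 and 47.8. Each MCJ-deficient group lay below its wild-type counterpart. Ndufc1 fell by 1.57 ± 0.28 in wild type and by 1.52 ± 0.31 without MCJ on the log2 scale (adjusted p = 9.3e-04 and 0.0035, edgeR), and it was the only one of the 36 called in MCJ-deficient mice whichever single library was left out. In wild type 27 genes were.

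Ndufa10, a membrane-arm subunit related to nucleoside kinases, had 232, 253 and 178 CPM in wild-type NN, 244, 355 and 236 in NP and, in PP, 185, 316 and 216. MCJ-deficient libraries had 251 and 197, then 225, 273 and 294, then 170.1, 158 and 201. The groups overlapped in both genotypes, and the fold changes of -0.28 ± 0.27 and -0.15 ± 0.30 did not pass. Its transcript of 2020 bases is the second longest of the 36. As shares of the summed complex I counts, Ndufs1 took 0.943 to 1.64% in wild-type NN and 3.10 to 3.58% in wild-type PP, and Ndufa10 took 1.97 to 2.54% and 4.44 to 4.82%, with no overlap for either. In MCJ-deficient mice the shares of Ndufs1 overlapped, at 2.41 to 2.53% in NN and 2.15 to 3.70% in PP, and those of Ndufa10 did not, at 2.74 to 2.94% and 4.70 to 5.89%.

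At the distal end of the membrane arm, Ndufb8 had 493, 611 and 442 CPM in wild-type NN, 382, 362 and 469.6 in NP and, in PP, 163, 295 and 227. Ndufb9, another LYR-motif protein, had 588, 751 and 637, then 488, 475 and 611, then 215, 396 and 268. Both were separated between NN and PP, with log2 fold changes of -1.57 ± 0.25 and -1.56 ± 0.26 (adjusted p = 3.6e-04 and 4.7e-04, edgeR). In MCJ-deficient mice Ndufb8 had 406 and 352 in NN and 145, 131 and 169.9 in PP, and Ndufb9 591 and 501 then 173, 181 and 240.2. Ndufb2 led the distal genes by p in MCJ-deficient mice, with 90.5 and 81.9 CPM in NN and 21.5, 22.5 and 37.8 in PP (-1.45 ± 0.30, adjusted p = 0.0047).

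**Figure D4:**
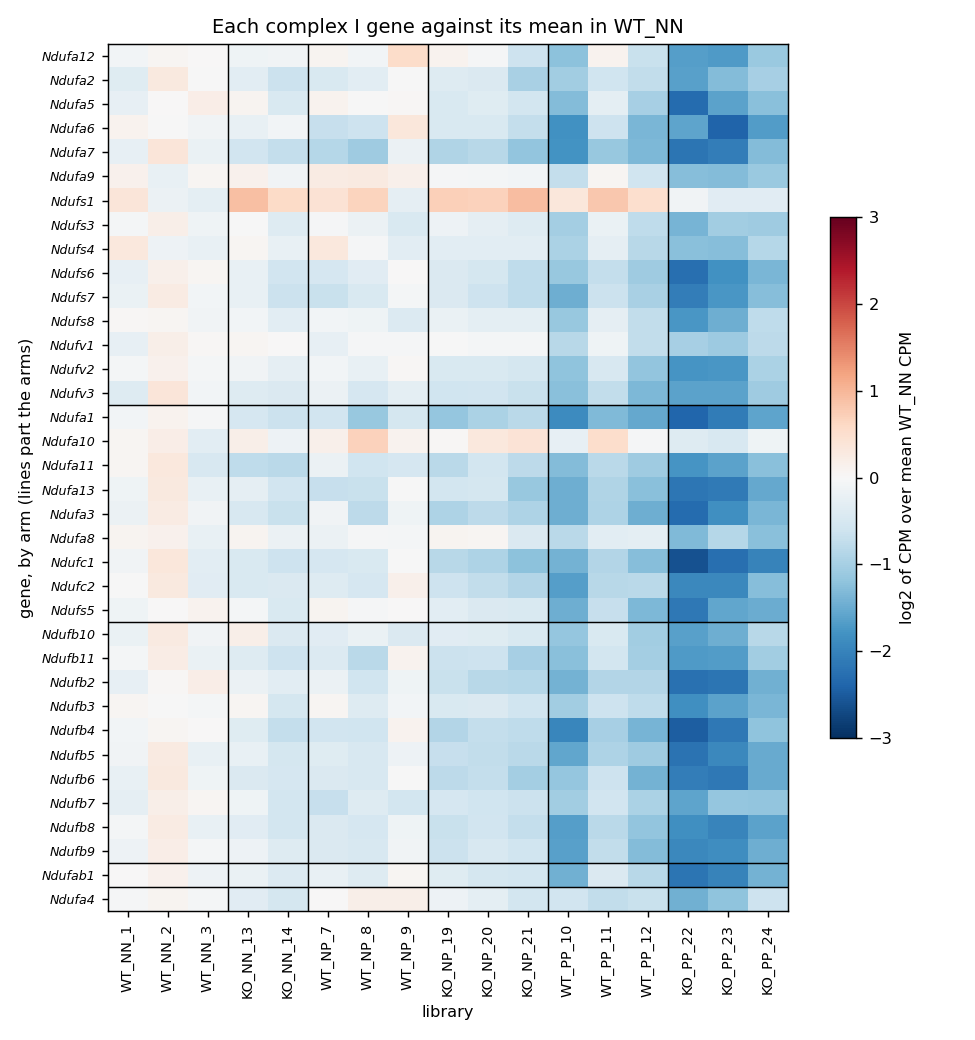
Rows are the 36 complex I genes by arm and columns the 17 libraries; colour is log2 of the CPM over the gene's mean CPM in wild-type NN. Nearly all rows are blue in PP, while Ndufs1 is above its wild-type NN mean in all MCJ-deficient NN and NP libraries and in all wild-type PP libraries.

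Levels per length kept much of their order. CPM per kilobase of the principal transcript averaged 936 ± 119 (SD, n = 3) for Ndufb9, 962 ± 67.6 for Ndufa1 and 758 ± 128 for Ndufb8 in wild-type NN, the 3 highest over the 6 groups. Ndufb9 and Ndufa1 did not differ beyond their spread there. In MCJ-deficient PP Ndufb9 was at 282 ± 51.8, Ndufa1 at 243 ± 69.9 and Ndufb8 at 218 ± 29.2, again within their spread. Ndufb9 was the highest of the 36 in 13 of 17 libraries. The lowest were Ndufa8, an intermembrane-space subunit, at 59.3 ± 7.5, Ndufs1 at 44.7 ± 11.3 and Ndufa12 at 95.8 ± 5.1 in wild-type NN, and Ndufa8 was lowest in 12 of 17 libraries. Per kilobase of coding sequence Ndufa4 joined the 3 highest in place of Ndufb8, and Ndufv3 the 3 lowest in place of Ndufa12. The rank of Ndufv3 rests on the 1404 coding bases of its principal transcript.

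DSS alone moved few of these genes past the test. In wild type 36 of 36 fold changes of NP against NN were below 0 (median -0.62, all genes 0.14), or 24 of 36 without TMM scaling (median -0.0892, all genes 0.63), and 1 gene was called, where 0.195% of all genes were called lower. Only Ndufa1 and Ndufb7 had all NP libraries below all NN libraries, 2 of 36 where 2.09% of all genes did, and Ndufa9 alone had them above, where 18.4% did. The called gene was Ndufa1, at -1.07 ± 0.28 with an adjusted p = 0.0498 by edgeR, and the call was lost when WT NN library 1 or 2 or any 1 WT NP library was left out (adjusted p = 0.071 to 0.24). Next came Ndufb7 and Ndufa7. Ndufb7 had 184, 249 and 231 CPM in NN and 137, 170.0 and 152 in NP (adjusted p = 0.058), and the groups did not overlap. Ndufa7 had 256, 392 and 264 in NN and 168, 146 and 271 in NP, which overlap (adjusted p = 0.11).

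In MCJ-deficient mice 0 of 36 were called under DSS, where 0.0354% of all genes were called lower, and 35 of 36 fold changes were below 0 (median -0.42, all genes 0.02). The NP libraries lay below both NN libraries for 16 of 36 genes, where 9.29% of all genes did so. By edgeR 1 of the 36, Ndufb2, had an unadjusted p under 0.05, and by DESeq2 0 did and 0 were called. Ndufb2 had 90.5 and 81.9 CPM in NN and 64.3, 57.2 and 56.9 in NP (-0.71 ± 0.30, adjusted p = 0.50, edgeR).

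Antibiotic before DSS was compared with DSS alone. In wild type 35 of 36 fold changes of PP against NP were below 0 (median -0.75, all genes 0.06), and 1 gene was called, where 0.926% of all genes were called lower. For 25 of 36 genes all PP libraries lay below all NP libraries, where 8.92% of all genes did so. Ndufs5, a small subunit on the intermembrane-space side, had 206, 190.2 and 195 CPM in NP and 71.1, 120.1 and 77.1 in PP, with no overlap. It fell by 1.17 ± 0.26 on the log2 scale (adjusted p = 0.015, edgeR), and not past the test without WT NP library 7, WT PP library 10 or WT PP library 12 (adjusted p = 0.080, 0.10 and 0.080). Without WT PP library 11, 9 genes were called (share of all genes not given). Ndufb8 and Ndufb9, given above for these libraries, were next in p (-0.85 ± 0.25 and -0.87 ± 0.25, adjusted p = 0.061 and 0.062, edgeR). The count of Ndufs5 is uncertain, since a pseudogene copy, Ndufs5-ps, had 78.0% as many counts.

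In MCJ-deficient mice 36 of 36 fold changes were below 0 in PP against NP (median -0.66, all genes 0.01) and the libraries of 36 of 36 genes did not overlap, where 22.3% of all genes were lower with no overlap. At the adjusted p 0 were called by edgeR and 3 by DESeq2. Of all genes 0.389% were called lower by edgeR and 1.49% by DESeq2. By edgeR 22 of the 36 had an unadjusted p under 0.05, a count for which the share of all genes is not given. The 22 became 12 without KO PP library 22, 13 without KO NP library 20 and 33 without KO PP library 24. Without KO PP library 24, 11 were called (share of all genes not given). Smallest in p were Ndufa9, with 306, 298 and 294 CPM in NP and 129, 126 and 145 in PP (-0.81 ± 0.22, adjusted p = 0.067, edgeR), and Ndufs5, with 157, 143 and 142 then 44.2, 66.3 and 69.7. Ndufab1 followed with 165, 148 and 146 in NP and 46.7, 53.3 and 80.3 in PP.

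Red blood cell markers moved in the same comparison. Their summed CPM was 62.7 to 136 in MCJ-deficient NP and 12438, 16016 and 1004 in MCJ-deficient PP libraries 22, 23 and 24. Library 24, with the fewest of these transcripts, had the most complex I of its group. Library 23, with more of them than library 22, also had more complex I (3127 against 2887 CPM). Library 24 further had the most colonocyte (25830 CPM) and the fewest macrophage transcripts (4179 CPM) of its group. The part of red blood cell RNA in the PP values was not tested.

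Loss of MCJ itself gave 0 calls among the 36 in each condition, by edgeR. In NN 35 of 36 fold changes were below 0 (median -0.63, all genes 0.08), but without TMM scaling the median was 0.10 and that of all genes 0.79, so the complex I genes lay below all genes in either case. Of the 36, 21 had an unadjusted p under 0.05 by edgeR. The share of all genes at an unadjusted p is not given, for this count or those below. Such a count is therefore not by itself a result about complex I. At the adjusted p 8 were called lower by DESeq2, where 0.0% of all genes were called by edgeR and 2.15% lower by DESeq2. The 21 became 1 without KO NN library 14, 11 without WT NN library 2, 14 without KO NN library 13 and 15 without WT NN library 1 (19 without WT NN library 3). In NP 35 of 36 were below 0 (median -0.40, all genes 0.03), 11 at an unadjusted p under 0.05 and 1 called lower by DESeq2, with 1.0% of all genes called by edgeR and 0.325% lower by DESeq2. The 11 became 1 without KO NP library 21, 4 without KO NP library 19 or WT NP library 7, 6 without KO NP library 20 and 19 without WT NP library 8. In PP 35 of 36 were below 0 (median -0.24, all genes 0.01), 1 at an unadjusted p under 0.05 and 0 called by DESeq2, with 0.0% of all genes called by edgeR. The PP median ran from -0.53 (without KO PP library 24) to -0.12 and -0.09 without WT PP library 11 and KO PP library 22, each of which left 28 of 36 below 0, and was -0.42 without WT PP library 10. Averaged over the 3 conditions, 35 of 36 were below 0 (median -0.45), 27 had an unadjusted p under 0.05 (16 without KO NN library 14), 0 were called by edgeR and 8 by DESeq2, where 0.0059% of all genes were called by edgeR and 1.42% lower by DESeq2.

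In levels, the MCJ-deficient libraries lay below all wild-type libraries of the same condition for 17 of 36 genes in NN, where 6.2% of all genes did so. The counts were 16 of 36 in NP, where 5.09% of all genes did so, and 12 of 36 in PP, where 13.9% did. Ndufs1 alone lay above the wild-type libraries in NN, where 30.3% of all genes did, and in NP, where 12.0% did. In NP 10 of the 14 macrophage markers were called higher with MCJ loss, where 1.0% of all genes were called in either direction. Their part in the complex I values was not tested.

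The smallest p in NN were those of Ndufa1 (-0.89 ± 0.23), Ndufb4 and Ndufa4, all known as small membrane proteins, with an adjusted p = 0.57 each by edgeR. Ndufb4 had 278, 306 and 297 CPM in wild type and 229.6 and 178 without MCJ, and Ndufa4 251, 269.7 and 246 against 202 and 176, both with no overlap. Reads of Ndufb4 may be shared with its copies Ndufb4b and Ndufb4c, which had 91.9 and 98.9% as many counts. In NP the smallest p were those of Ndufc1 (-0.76 ± 0.22, adjusted p = 0.20, edgeR), Ndufa5, of the peripheral arm, and Ndufb6, of the membrane arm. Ndufa5 had 214, 199 and 205 CPM against 145, 156 and 137, and Ndufb6 had 133, 129 and 178 against 105, 110.1 and 88.2.

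In PP Ndufc1, Ndufs1 and Ndufa9 had the smallest p (adjusted p = 0.94 to 0.95, edgeR), and Ndufv3 alone was above 0, at 0.01 ± 0.32. Ndufv3, a subunit beside the NADH site, had 122, 177 and 116 CPM in wild type and 95.8, 96.4 and 141 in MCJ-deficient mice. Over all conditions Ndufc1 came closest, at -0.80 ± 0.17 with an adjusted p = 0.077 by edgeR, and it passed without WT NN library 3 (adjusted p = 0.022) or without KO PP library 24 (0.040). Ndufb6 (-0.64) and Ndufb2 (-0.55) followed.

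The genotype difference was also compared between conditions. For NP against NN 0 of 36 were called (0 at an unadjusted p under 0.05, 0 called by DESeq2), and for PP against NP 0 (1 and 0), where 0.0% of all genes were called by edgeR in both. Ndufs1 had the smallest p of PP against NP (-0.90 ± 0.37, unadjusted p = 0.027, adjusted p = 0.90). Ndufa11, a membrane-arm subunit, had the smallest p of NP against NN (0.68 ± 0.43, adjusted p = 1.0). In NN it had 263, 313 and 182 CPM with MCJ and 149 and 145 without, and in NP 224, 167 and 179 with MCJ and 143, 173 and 146 without.

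Transcript length moved with the genotype difference in NN. Of the 36 principal transcripts, 24 are at most 1000 bases long, another 10 at most 2000, and Ndufa10 and Ndufs1 are longer. In NN the median fold change of MCJ loss over all 1531 tested genes of at most 1000 bases was -0.53, and that of 8299 genes over 2000 bases was 0.27. The complex I genes of at most 1000 bases had a median of -0.75, those of up to 2000 bases -0.50 (all genes of that length -0.16), and Ndufa10 and Ndufs1 stood at -0.31 and 0.43. Across the 36 genes, which are not independent and share libraries, Spearman's rho of fold change and length was 0.63 in NN, against 0.36 in NP and -0.06 in PP. Genes of at most 1000 bases took 28.3 to 36.7% of nuclear counts in the wild-type NN libraries, against 22.1 to 25.2% in the MCJ-deficient ones.

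A fit that removed each library's trend of expression on transcript length, added after the data had been seen, changed the genotype comparison. In NN the median of the 36 genes became 0.01, with 18 of 36 below 0, against 0.16 over all genes. In NP the median became -0.15 with 28 of 36 below 0, and averaged over conditions -0.19 with 32 of 36 below 0 (7 at an unadjusted p under 0.05). In PP it became -0.16 with 30 of 36 below 0. In NN the complex I genes still lay below genes of like length: their median was 0.06 against 0.20 for those of at most 1000 bases (19 of 24 below) and -0.13 against 0.16 for those of up to 2000 (10 of 10 below), where 18 of 24 and 10 of 10 lay below without the correction. No member was called in any of these 4 comparisons by that edgeR fit.

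The fall in PP against NN kept its direction in the same fit. In wild type 20 of 36 were called lower and the median was -0.68, against 0.31 over all genes, 5.2% of which were called lower. All 20 were among the 34 called without the correction, and the 14 lost included the core subunits Ndufs3 and Ndufs8. In MCJ-deficient mice 23 were called, with a median of -0.87, where 4.13% of all genes were, and these included all 19 called without it. In both genotypes 16 genes were called, among them Ndufa1, Ndufc1, Ndufb8, Ndufb9, Ndufv1, Ndufv2 and Ndufs7. Within length classes the 36 genes lay lower than all genes here as well: in wild type the 24 of at most 1000 bases had a median of -1.41 against -0.34 without the correction and -0.68 against 0.27 with it, and 24 of 24 lay below the median of all genes of that length in both. Whether RNA quality, library making or the cells set the length trend was not tested.

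**Figure D5:**
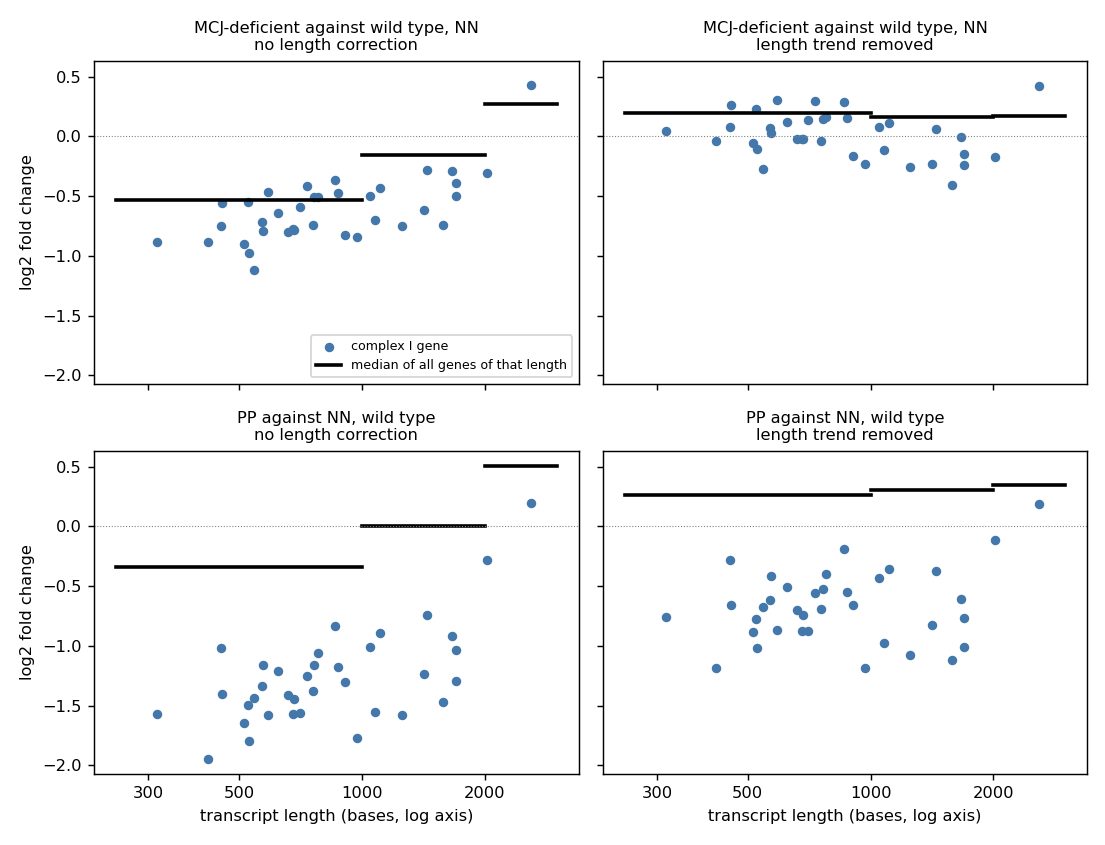
Points are the 36 complex I genes by transcript length (log axis) and log2 fold change, without (left) and with (right) removal of the length trend; black lines mark the median of all genes tested in 3 length classes. In the genotype comparison of NN (top) the median of the points moves from -0.63 to 0.01 and most stay below the lines; in wild-type PP against NN (bottom) it moves from -1.32 to -0.68, and all 36 stay below the lines.

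Other parts of the respiratory chain were read from further lists. Of 35 tested nuclear subunits of complexes II to V, 30 fell in PP against NN in wild type (median -1.44) and 20 without MCJ (-1.02), with the smallest p for Cox6c (-2.02) and Cox6a1 (-1.92) of cytochrome c oxidase in wild type and for Uqcrfs1 (-1.14), the Rieske protein of complex III, and Atp5j2 (-1.42) of ATP synthase in MCJ-deficient mice. Of 15 complex I assembly factors 4 fell in wild type and 1 without MCJ, the latter near the 3.77% of all genes. Timmdc1 (-1.28) and Ndufaf3 (-1.48) had the smallest p in wild type, and Ndufaf5 (-1.34) was the one that fell in MCJ-deficient mice. Complex I genes on mitochondrial DNA did not follow: 0 of 7 were called in either genotype, with medians of -0.02 and 0.56. The smallest p among them were those of mt-Nd4l in wild type (0.83 ± 0.35, adjusted p = 0.11, edgeR) and mt-Nd5 in MCJ-deficient mice (0.85 ± 0.32, adjusted p = 0.10), and mitochondrial shares of the counts varied within groups.

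Of 12 regulators of mitochondrial biogenesis, 1 fell and 2 rose in PP against NN in wild type, and 1 fell in MCJ-deficient mice. These are shares near those of all genes, of which 7.31% were called lower and 12.8% higher in wild type and 3.77% lower without MCJ. Esrra, the nuclear receptor ERR-alpha, fell in both, by 1.03 ± 0.32 in wild type (adjusted p = 0.029, edgeR) and by 1.36 ± 0.35 without MCJ (adjusted p = 0.017). Gabpb1, a subunit of the ETS factor GABP, rose in wild type (1.59 ± 0.51, adjusted p = 0.035). Of the 18 colonocyte markers 11 and 10 fell, with the smallest p for Guca2a (-2.63) and Phgr1 (-2.47) in wild type and for Car2 (-2.33) and Phgr1 (-1.78) without MCJ. Of the 14 macrophage markers 13 rose in each genotype, where 12.8% and 6.52% of all genes were called higher.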

How the data were processed

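The authors deposited 3 tables of raw read counts per gene, 1 per condition. Per the submitters' processing notes, CASAVA 1.8.2, FastQC, Trim Galore, STAR 2.5.4, DESeq2 and mm10 were used; the counting program, annotation and strand setting are not given in the sources used here. Of 27179 gene numbers, 25275 were named from RefSeq and 18 from GENCODE; the 1886 unnamed ones held 1.39 to 7.32% of counts and were kept. Genes were filtered with filterByExpr, scaled with TMM and tested with edgeR 4.0.16 (R 4.3.3; quasi-likelihood), within each table for MCJ loss and in 1 fit of 17 libraries otherwise, with Benjamini-Hochberg adjustment over all genes tested and calls at 0.05; DESeq2 1.42.0 was an alternative. In the fit of 17 libraries TMM factors were 0.699 to 0.837 in wild-type NN and 1.16 to 1.27 in MCJ-deficient NN. The fits within each table had their own factors, not given here. TMM scales all counts while CPM use nuclear counts, so fold changes differ from CPM ratios. The fits were tested on simulated data. The length trend was a loess of log expression on log transcript length per library (span 0.5), used as an offset. Members and lists were chosen with earlier results of these data known. Genes named with values were the 3 with the smallest p and the largest of opposite sign per comparison, the core subunits, the 3 highest and lowest per length, and 2 of each other list; Ndufa10 was followed further after its values were seen.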

Additional observations from a re-analysis of the deposited data

How the results depend on the processing

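With DESeq2 8 genes were called for MCJ loss in NN, 1 in NP and 8 averaged over conditions. It called 3 for DSS in wild type, and 6 and 3 for antibiotic before DSS in wild-type and MCJ-deficient mice. Shares of all genes are given above for DESeq2 in MCJ loss and in antibiotic before DSS without MCJ, and for the length trend in PP against NN. For the other settings in this section no such share is given, so a higher count there is not by itself a result about complex I. Without TMM the counts were 0 for DSS in wild type, 9 for antibiotic before DSS in wild type and 31 for PP against NN in MCJ-deficient mice. For DSS in wild type, 2 were called with mitochondrially encoded genes removed before TMM, and 0 with upper-quartile factors, with any count in 2 or more libraries or with the length trend removed; upper-quartile factors gave 2 for antibiotic before DSS in wild type. With the length trend removed 20 were called for PP against NN in wild type. Leaving out 1 library gave 27 to 33 calls for PP against NN in wild type and 2 to 28 in MCJ-deficient mice (2 without KO NN library 13, 8 without KO NN library 14, 10 without KO PP library 22, 11 without KO PP library 23, 28 without KO PP library 24), 0 to 1 for DSS in wild type, 0 to 9 and 0 to 11 for antibiotic before DSS, and 0 to 3 for MCJ loss averaged over conditions (3 without KO PP library 24, 1 without WT NN library 3); with 1 NN library left the spread of the other groups is assumed. The median for MCJ loss in NN became 0.10 without TMM, where the median of all genes moved to 0.79, and 0.0125 with the length trend removed. The median genotype difference of PP against NN, 0.24, became -0.43 without TMM and -0.13 with the length trend removed, and ran from -0.0297 (without KO PP library 24) to 0.4355 when 1 library was left out. The causes were not tested. Over all counts the mean summed level in NN was 5462 in wild type and 5851 without MCJ. That order is the reverse of the one per nuclear counts. In NP the means over all counts were 5203 and 3946, and in PP 2902 and 2401. Per nuclear counts but without Ndufa4 and Ndufab1, the summed level was 6451 in MCJ-deficient NP. At least 2 mouse numbers in the titles recur between the groups of 2 comparisons, and 1 number (10) between the PP groups, too few for a block there. With the numbers as a replicate block, in fits added after seeing the data, 0 genes were called for MCJ loss in NN and 0 for DSS in MCJ-deficient mice, as without the block.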
